A study of Homo sapiens with 9 samples.

Results

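The genes described are 35 members of the oxygen-dependent demethylase and hydroxylase families: the histone demethylases with a Jumonji C (JmjC) domain and their close relatives, the 3 TET enzymes, and 5 genes of the ALKBH family, FTO among them. Every accessible region of the 3 deposited lists was given to the protein-coding gene whose start or end in the RefSeq annotation of GRCh38 lay nearest, within 50 kb, and the regions given to these 35 genes were kept. All 35 were found among the 20033 protein-coding genes. They received 137 of 90959 regions in normoxia with the control hairpin, 118 of 77448 in hypoxia with the control hairpin and 108 of 62774 in hypoxia with the hairpin against ZHX2. Values given as a run of 3 keep that order.

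The enzymes of these families use molecular oxygen, iron and 2-oxoglutarate to hydroxylate a methyl group, which then leaves a histone lysine, or is oxidised further on cytosine in DNA, or leaves a damaged base in DNA or a modified adenine in RNA. Because oxygen is a substrate, their activity can fall when oxygen is scarce, and several of their genes, KDM3A, KDM4B and KDM4C among them, are known targets of the hypoxia-inducible factors (HIF), the transcription factors of the oxygen response. Not every member is a demethylase: JARID2 has a JmjC domain without demethylase activity and works with Polycomb complexes, JMJD4 and JMJD6 hydroxylate proteins, RIOX1 and RIOX2 hydroxylate ribosomal proteins, and TYW5 hydroxylates a base of transfer RNA. ATAC-seq reads none of these activities. It shows where a transposase can enter chromatin near the genes.

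The cells were T47D, a line grown from a luminal human breast carcinoma. There were 9 samples in 3 groups of 3: shCtrl, a control hairpin delivered by lentivirus, in normoxia; shCtrl in hypoxia; and shZHX2, a hairpin against ZHX2, in hypoxia. All groups went through lentiviral infection and drug selection, the labels give 1 name for the ZHX2 hairpin, and neither the oxygen level nor how long hypoxia lasted is given in the sources used here. ZHX2 is a zinc finger and homeobox protein that the von Hippel-Lindau ubiquitin ligase can target, and accessibility calls do not check how far its transcript was lowered.

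Each group had 1 list of called regions, so no value has a spread over samples, no p-value is given, and read depth is unknown for all of them. The lists grew shorter in the order given, covering 60.1, 48.5 and 40.6 Mb, and the share of their regions at a gene end was 16.3%, 18.3% and 21.5%. A region is at a gene end here when it comes within 1 kb of a protein-coding gene's start or end, and any other region is called distal. Not called means only that no region of a list touched the place. Of 9 luminal breast markers, 8 had a gene-end region in every list, and ESR1 had none in any. The rule looks only near the outer ends of a gene's span, so ESR1 may still have an accessible start further inside. Of 5 blood markers 4, 3 and 2 had a gene-end region, since CD68 was called in normoxia alone and CD3D in the shCtrl lists alone. Of 5 markers of stroma and endothelium 1 had one in each list. Over all protein-coding genes 74.2%, 72.3% and 70.0% had one, so a gene-end call alone does not mark a cell type.

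A gene-end region was called at 32 of the 35 genes in each of the 3 lists, against 74.2%, 72.3% and 70.0% of all protein-coding genes. The exceptions were KDM3A, KDM4C and PHF8, in every list. No gene among the 35 had a gene-end call that differed between lists. Over all protein-coding genes such a difference was uncommon too: 2.34% had a gene-end call in normoxia and not in hypoxia, 0.474% the reverse, 2.72% had one in hypoxia with shCtrl and not with shZHX2, and 0.469% the reverse. At rates this low few or none of 35 genes would differ, so the count of 0 is near the background. It also depends on how the lists are cut: with lists of equal length by fold, 27, 28 and 32 of the 35 genes had a gene-end region and 5 differed between lists (KDM5B, KDM6B, PHF2, JMJD8 and HR), and with the stronger 50% of each list 3 did (KDM5B, PHF2 and TET1). With equal lengths by −log10 q none did.

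For KDM3A, KDM4C and PHF8 the RefSeq gene span begins ahead of the annotated start windows, and regions over those windows were called in all 3 lists. KDM3A, which removes mono- and dimethyl marks from lysine 9 of histone H3, has its first annotated start window at position 86441371 of chromosome 2, which lies 4327 bp inside its span. KDM4C, which removes trimethyl marks from the same lysine, has its window 37110 bp inside. PHF8, an X-linked demethylase with a plant homeodomain finger, had called starts 3800 and 4463 bp inside and an uncalled one at 5789 bp. Start windows of 300 bases, reaching from 250 before to 50 after each RefSeq start, were on hand for 31 of the 35 genes (none for JMJD6, RIOX1, RIOX2 and HR). All 31 had at least 1 window touched by a region in every list, against 71.2%, 69.8% and 68.7% of the 15842 genes with a window.

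The upstream 250 bases are shown for 4 starts that a region touched in every list. At KDM5B the regions cover only the part nearer the start, since they end at positions 202808586, 202808612 and 202808578. KDM3A, KDM4B, KDM4C and KDM5B were taken because they are known HIF targets, and 2 of them are the starts that the gene-end rule misses. Sequences are from RefSeq on GRCh38.p14, written 5′ to 3′ on the strand of the gene and ending at the base before the start. Capitals mark the core of the hypoxia response element, ACGTG or GCGTG, read on both strands, so that CACGTG counts once per strand.
KDM3A, chr2:86441121-86441370, plus strand: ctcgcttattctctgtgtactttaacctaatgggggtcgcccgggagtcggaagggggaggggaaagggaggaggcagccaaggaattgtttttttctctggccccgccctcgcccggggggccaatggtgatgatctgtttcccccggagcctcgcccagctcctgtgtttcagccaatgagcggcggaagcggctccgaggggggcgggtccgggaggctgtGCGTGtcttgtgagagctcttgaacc
KDM4B, chr19:4968863-4969112, plus strand: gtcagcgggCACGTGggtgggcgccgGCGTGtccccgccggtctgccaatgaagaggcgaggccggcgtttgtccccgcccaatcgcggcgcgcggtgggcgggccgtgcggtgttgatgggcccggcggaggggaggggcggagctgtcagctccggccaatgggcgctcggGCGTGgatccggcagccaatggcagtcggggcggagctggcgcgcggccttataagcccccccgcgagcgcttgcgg
KDM4C, chr9:6757723-6757972, plus strand: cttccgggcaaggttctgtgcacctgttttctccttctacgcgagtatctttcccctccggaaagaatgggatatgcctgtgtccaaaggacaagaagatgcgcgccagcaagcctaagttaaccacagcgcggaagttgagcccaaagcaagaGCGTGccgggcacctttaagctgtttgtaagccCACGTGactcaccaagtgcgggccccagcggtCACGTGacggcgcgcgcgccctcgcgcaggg
KDM5B, chr1:202808422-202808671, minus strand: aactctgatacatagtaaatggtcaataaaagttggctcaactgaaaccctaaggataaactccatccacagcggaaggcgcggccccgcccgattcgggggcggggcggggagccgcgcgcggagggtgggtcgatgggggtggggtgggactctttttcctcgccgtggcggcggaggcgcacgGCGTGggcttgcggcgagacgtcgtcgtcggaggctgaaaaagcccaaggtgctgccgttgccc

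KDM3A holds 1 core in this stretch, 26 bases before the start, and KDM5B holds 1, at 64 bases. KDM4B holds 4, of which 2 are the strands of a single CACGTG. KDM4C holds 5, of which 4 come from a pair of CACGTG palindromes that begin 63 and 31 bases before the start. A core was present in 65.2% of the 46 start windows of these genes and in 54.7% of all 22198 windows, and 2 or more in 26.1% and 27.3%. The upstream stretches had a median GC content of 64.2%, against 62.0% over all windows. A match is a run of letters and no evidence of binding.

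The folds over these starts are the authors' own enrichment values and rank regions only within a list, so the values below stand side by side without a direction. FTO, the RNA demethylase of N6-methyladenosine, had the highest: its start region carried a fold of 12.0, 12.2 and 12.7, at percentiles of 99.4, 99.1 and 99.1 by −log10 q within its list. KDM4D followed with 10.1, 10.3 and 11.1. KDM4B had 6.70, 7.99 and 9.29, with percentiles of 98.9, 99.2 and 99.5. At the low end KDM5B, a demethylase of lysine 4 of histone H3 that is abundant in luminal breast cells, had 1.75, 2.33 and 2.22 and percentiles of 39.9, 63.0 and 51.6. The start of KDM5B was thus of middling rank in each list, while those of FTO and KDM4B were near the top.

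**Figure D1:**
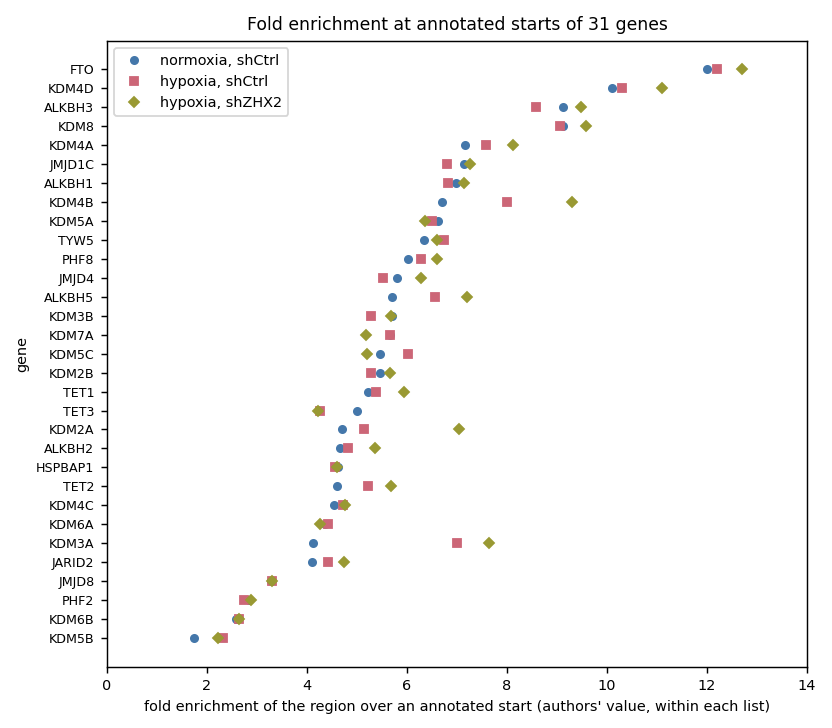
Fold enrichment over the local background, as the authors gave it, of the region over an annotated start of each of the 31 genes with a start window (for genes with several, the start strongest in normoxia among those called in all 3 lists). Points are the 3 lists, 1 value each. FTO stands highest at 12.0 to 12.7 and KDM5B lowest at 1.75 to 2.33.

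At the starts of KDM3A and KDM2A the width of the called region differed between lists together with its fold. At the KDM3A start the region was 2360 bp wide in normoxia with a fold of 4.12, and in each hypoxia list the same stretch was called as 2 regions, the larger being 1078 bp at a fold of 6.99 and 1024 bp at 7.63. At the KDM2A start, whose enzyme binds unmethylated CpG islands and acts on lysine 36 of histone H3, widths were 1985, 1907 and 1093 bp beside folds of 4.70, 5.14 and 7.03. KDM4C, by contrast, had nearly level values: widths of 1929, 1891 and 1893 bp and folds of 4.54, 4.72 and 4.76. What the width contributes to the fold was not tested.

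Among 34 gene-end sites of these genes with 1 region in each list, 3 were over 1.5 times narrower in hypoxia than in normoxia (KDM5B, TET2 and TET3), against 3.65% of 13090 such sites of all genes. KDM5B had 1657 bp in normoxia and 877 bp in hypoxia, and TET3 had 1566 and 871 bp. Only KDM2B, a subunit of a Polycomb complex, was over 1.5 times wider, at 1320 bp in normoxia and 2078 bp in hypoxia, against 0.420% of all sites. With shZHX2 against shCtrl in hypoxia, 4 sites were narrower (the starts of KDM2A, KDM2B and KDM5B, and the far end of KDM4B, with 379 and 206 bp), against 3.90%, and 0 were wider, against 1.31%. KDM2B stood at 1310 bp with shZHX2, near its normoxia width, and KDM5B at 551 bp. The median width ratio of these genes was 0.978 and 0.984 in the 2 comparisons, beside 0.966 and 0.991 over all sites.

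Several genes have annotated starts more than 1 kb inside the RefSeq span, and most of these were called. For KDM2B, KDM3A, KDM4C, PHF8 and TET3 they are the only start windows on hand. The counts below therefore mix such starts with additional internal ones. Of 20 start windows lying more than 1 kb inside, in 11 genes, 17, 17 and 16 were called (85.0%, 85.0% and 80.0%), beside 48.4%, 45.7% and 44.8% of 5307 such windows over all genes. The lower interval bounds were 64.0%, 64.0% and 58.4%, and several of the 20 windows share 1 region. The internal KDM2A start at 120751 bp, which gives a short form without the JmjC domain, was called in all 3 lists with folds of 3.82, 4.14 and 6.15. So was the internal pair of TET1, which gives a short isoform without the CpG-binding domain, with folds of 5.22, 5.37 and 5.94, beside 4.46, 4.07 and 4.27 at the outer start of TET1. JMJD1C, a relative of KDM3A, was called at all 3 of its starts in every list. Its start at 252647 bp had folds of 7.14, 6.80 and 7.25, beside 6.02, 5.99 and 6.04 at the outermost.

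In all, 2 windows were called in some lists and not in others. The TET3 start 1279 bp inside was touched in normoxia alone, where the region over the outer end was at its widest. The KDM2B start 2620 bp inside was touched in hypoxia with shCtrl alone, again by the widest of the 3 regions there. A window of KDM6B 5700 bp inside, the one of PHF8 named above and the outermost start of TET2 were called in no list, while the next start of TET2, 1001 bp further in, was called in all 3 with folds of 4.59, 5.21 and 5.67.

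Many of these genes share a region over an end with another gene of the annotation. Of 30 genes with a region lying across an end, 13 had a region that also held an end of another protein-coding gene, in each list, against 24.6%, 24.5% and 24.8% of all genes with such a region. The pairs were JMJD1C with REEP3, KDM4D with CWC15, KDM5A with CCDC77, KDM5C with IQSEC2, KDM6B with LOC124904106, JMJD6 with METTL23, JMJD8 with WDR24, HSPBAP1 with SLC49A4, TYW5 with MAIP1, RIOX1 with ACOT1, HR with HRURF, ALKBH1 with SLIRP, and FTO with RPGRIP1L. An accessible region of this kind cannot be credited to one gene of the pair, and the high folds of FTO and KDM4D fall in this class.

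The number of regions per gene varied widely. The 35 genes had a median of 3, 3 and 2 regions and a mean of 3.91, 3.37 and 3.09, beside medians of 2, 2 and 2 and means of 3.22, 2.81 and 2.37 over all protein-coding genes. KDM4B, a demethylase of lysine 9 and lysine 36 of histone H3, had the most, with 11, 11 and 8, equalled by TET3 with shZHX2. At KDM4B in hypoxia with shCtrl, and at TET3 and KDM2A with shZHX2, 2 of the regions counted are pieces of 1 site. The same holds for KDM3A in both hypoxia lists. KDM4D, KDM5C, JMJD8, HR, TET2 and ALKBH2 had 1 in every list. At a gene end lay 34, 35 and 34 of the assigned regions, and 103, 83 and 74 were distal.

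**Figure D2:**
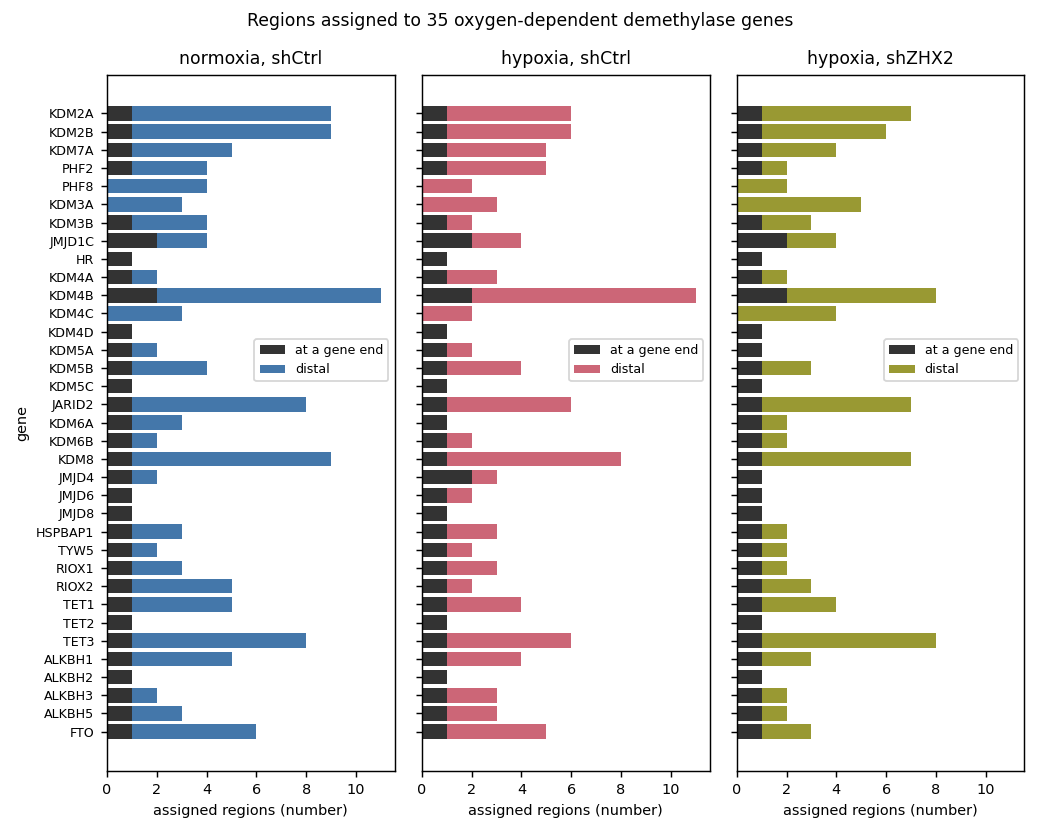
Number of regions assigned to each of the 35 genes in each list, gene-end regions in dark bars and distal regions stacked on them. KDM4B reaches 11, 11 and 8, while the dark part stays at 1 for most genes and is absent for KDM3A, KDM4C and PHF8.

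The KDM2 and KDM7 genes, which act on lysine 36, 9 or 27 of histone H3, held 31, 24 and 21 regions together. KDM2A had 9, 6 and 7 of these, KDM2B 9, 6 and 6, KDM7A 5, 5 and 4, PHF2 4, 5 and 2, and PHF8 4, 2 and 2. In this family normoxia held the most regions, except at PHF2 and KDM7A. The KDM3 family held 12, 10 and 13 regions and was the only family with its highest region count under shZHX2. That count came from KDM3A with 3, 3 and 5, where in both hypoxia lists 2 are pieces of the start region. With those pieces counted as 1 site, the family was no higher under shZHX2 than in normoxia. KDM3B had 4, 2 and 3 and JMJD1C 4, 4 and 4.

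The KDM4 family held 17, 17 and 15 regions, with KDM4A at 2, 3 and 2 and KDM4C at 3, 2 and 4 beside the larger numbers of KDM4B. KDM5 and JARID2 held 15, 13 and 12, of which JARID2 had 8, 6 and 7, KDM5B 4, 4 and 3, and KDM5A 2, 2 and 1. JARID2 gave this group more regions than any other of its members in each list. The KDM6 pair, the demethylases of lysine 27, held 5, 3 and 4 regions, KDM6A with 3, 1 and 2 and KDM6B with 2, 2 and 2.

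The 8 genes with little more than a JmjC domain held 26, 24 and 19 regions. KDM8 had 9, 8 and 7 of these, RIOX2 5, 2 and 3, HSPBAP1 and RIOX1 each 3, 3 and 2, JMJD4 2, 3 and 1, TYW5 2, 2 and 2, and JMJD6 1, 2 and 1. KDM8, 18.2 kb long, drew most of its regions from outside the gene. The TET genes, which oxidise methylcytosine, held 14, 11 and 13, of which TET3 had 8, 6 and 8 and TET1 5, 4 and 4. The ALKBH genes and FTO, which repair alkylated DNA or remove methyl groups from RNA, held 17, 16 and 11: FTO had 6, 5 and 3, ALKBH1 5, 4 and 3, ALKBH5 3, 3 and 2, and ALKBH3 2, 3 and 2. Families differ in size and gene length, and these counts carry no error over samples.

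Regions of the 3 lists that touched one another were joined into 146 sites, 35 at a gene end and 111 distal. Of the gene-end sites 97.1% (34 of 35, Wilson 95% interval 85.5 to 99.5) were called in all 3 lists, beside 88.4% of gene-end sites genome-wide. Of the distal sites 54.1% (60 of 111, 44.8 to 63.0) were, beside 52.9% genome-wide. These intervals, like those below, cover counting error only. The genome-wide share lay inside both intervals. Of the distal sites 71 lay inside the gene and 40 outside, and 7 of the 111 lay over an annotated start.

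The remaining 51 distal sites fell into unequal patterns. In both shCtrl lists and not with shZHX2 there were 17 (15.3% of the distal sites, beside 17.2% of distal sites genome-wide), and in normoxia alone 19 (17.1%, beside 19.0%). In hypoxia with shCtrl alone there were 4 (3.60%, beside 4.96%), and in hypoxia with shZHX2 alone 4 (3.60%, beside 2.35%). Another 7 were called in normoxia and under shZHX2 and were missing only from the hypoxia shCtrl list, at JARID2, KDM3A, KDM3B, KDM4C, KDM6A, RIOX2 and TET3. These 7 make 6.31% (3.09 to 12.4) of the distal sites, beside 2.77% genome-wide, just under the interval, and the pattern turns on the single hypoxia shCtrl list. No site was called in both hypoxia lists and missing from normoxia (0%, 0 to 3.35), beside 0.847% genome-wide, so the absence of such sites is near the background. The one gene-end site not called in all 3 lists was at JMJD4, called in hypoxia with shCtrl alone.

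The first comparison set normoxia against hypoxia, both with shCtrl. Of the regions of these genes in normoxia, 26 of 137 (19.0%, 13.3 to 26.4) touched no region of the hypoxia list, beside 20.6% of all normoxia regions. None of the 34 gene-end regions did (0%, 0 to 10.2), beside 5.17%, and 26 of 103 distal ones did (25.2%, 17.8 to 34.4), beside 23.6%. In the other direction 5 of 118 hypoxia regions (4.24%, 1.82 to 9.54) touched none of the normoxia list, beside 6.44%; 1 of 35 lay at a gene end (2.86%, 0.506 to 14.5), beside 1.26%, and 4 of 83 were distal (4.82%, 1.89 to 11.7), beside 7.60%. Every genome-wide share lay inside the interval of these genes, so the shares near these genes were not separable from those of the lists as a whole.

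KDM2A, KDM2B and RIOX2 had the most regions called in normoxia and not in hypoxia, 3 each. Those of KDM2A lay inside the gene, 27355, 37828 and 41637 bp from its nearer end, with folds of 3.96, 3.19 and 3.46. Those of RIOX2, the ribosomal oxygenase also known as MINA, all lay outside the gene, 13651 to 31067 bp from its end, with folds of 2.95 to 3.58. The strongest of the 26 was inside JARID2, at chr6:15284767-15285361, 38698 bp from the start. It had a fold of 5.16 and a percentile of 54.9 in the normoxia list. Of all normoxia regions in the same score decile, 2.68% were not called in hypoxia.

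The 5 regions called in hypoxia and not in normoxia were at 5 different genes: KDM4A, JMJD4, ALKBH3, JMJD6 and PHF2. The strongest by −log10 q lay in KDM4A at chr1:43653430-43653634, 3281 bp inside the gene, with a fold of 1.91 at a percentile of 29.7, while by fold JMJD6 came first with 2.74. The JMJD4 region, 585 bp beyond the end of the gene, had a fold of 1.63 at a percentile of 5.95, and the PHF2 region stood at 0.0943. None of the 5 was called with shZHX2. None was at KDM3A, KDM4B, KDM4C or KDM5B, and among the other members listed here as HIF targets (KDM6B, KDM2B, TET1, JMJD1C and JMJD6) only JMJD6 had one. The start region of KDM6B had folds of 2.58, 2.64 and 2.65, and the region across an end of JMJD6 had 5.71, 5.91 and 6.08.

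**Figure D3:**
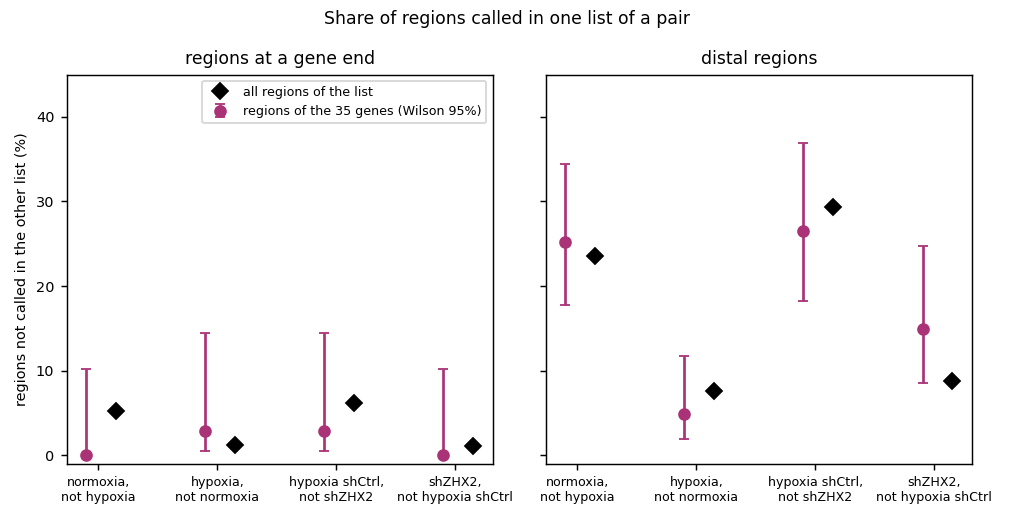
Share of regions of one list that touch no region of the other list of the pair, in percent, for gene-end regions (left) and distal regions (right). Circles are the regions of the 35 genes with Wilson 95% intervals, diamonds all regions of the list. The diamonds lie within the intervals in all 8 positions, and the largest gap is 14.9% against 8.76% for distal regions called with shZHX2 and not with shCtrl.

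The second comparison set shCtrl against shZHX2, both in hypoxia. It shares the hypoxia shCtrl list with the first, so the 2 are not independent. Of the hypoxia shCtrl regions of these genes, 23 of 118 (19.5%, 13.4 to 27.6) touched no shZHX2 region, beside 25.0% of all regions. At gene ends it was 1 of 35 (2.86%, 0.506 to 14.5), beside 6.17%, and among distal regions 22 of 83 (26.5%, 18.2 to 36.9), beside 29.3%. Of the shZHX2 regions, 11 of 108 (10.2%, 5.78 to 17.3) touched no hypoxia shCtrl region, beside 7.11%. None of the 34 at a gene end did (0%, 0 to 10.2), beside 1.08%, and 11 of 74 distal ones did (14.9%, 8.51 to 24.7), beside 8.76%. Here too the genome-wide shares lay inside the intervals.

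PHF2 and KDM4B had the most regions called with shCtrl and not with shZHX2, 3 each. PHF2, a plant homeodomain finger relative of the demethylases, had 2 of its 5 hypoxia regions called with shZHX2 too: the one over its start, with folds of 2.85, 2.75 and 2.89, and one 2331 bp past its far end. Of the 3 that were not called with shZHX2, those 11099 and 16014 bp from the start were also called in normoxia. The KDM4B regions had folds of 2.57, 2.39 and 3.47, the last pair lying 11251 and 16774 bp beyond its far end. The first, inside KDM4B, was 1 of 2 pieces of a site whose other piece touched a region called with shZHX2. The strongest of all 23 was in HSPBAP1, which encodes a heat shock protein partner: chr3:122754886-122755270 had a fold of 6.16 at a percentile of 61.8, and its fold in normoxia was 6.08. Of all regions in its score decile, 1.98% were not called with shZHX2. All assigned regions of the JARID2, KDM2A, KDM2B, KDM3A, KDM3B and TET genes in hypoxia with shCtrl touched a region of the shZHX2 list. Deeper than 50 kb inside the genes, where regions are not assigned, 3 of KDM2B, 2 of JARID2, 1 of KDM2A and 1 of TET1 did not.

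KDM3A and KDM4C had the most regions called with shZHX2 and not with shCtrl in hypoxia, 2 each. At KDM3A one lay 10428 bp outside the gene, with a fold of 3.82, and was absent from both shCtrl lists. The other, inside the gene at chr2:86480164-86480499, had a fold of 4.49 with shZHX2 and overlapped a normoxia region with a fold of 3.51. KDM4C had the same arrangement, with a region inside the gene that normoxia shared (folds of 3.50 and 3.34) and one 10006 bp outside it that it did not (3.45). The strongest was 13668 bp from RIOX2, at chr3:97927745-97928150, with a fold of 4.90 at a percentile of 40.9. Of all shZHX2 regions in its score decile, 2.63% were not called with shCtrl. Of the 11 regions, 7 were also called in normoxia, and 7 lay inside their gene.

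**Figure D4:**
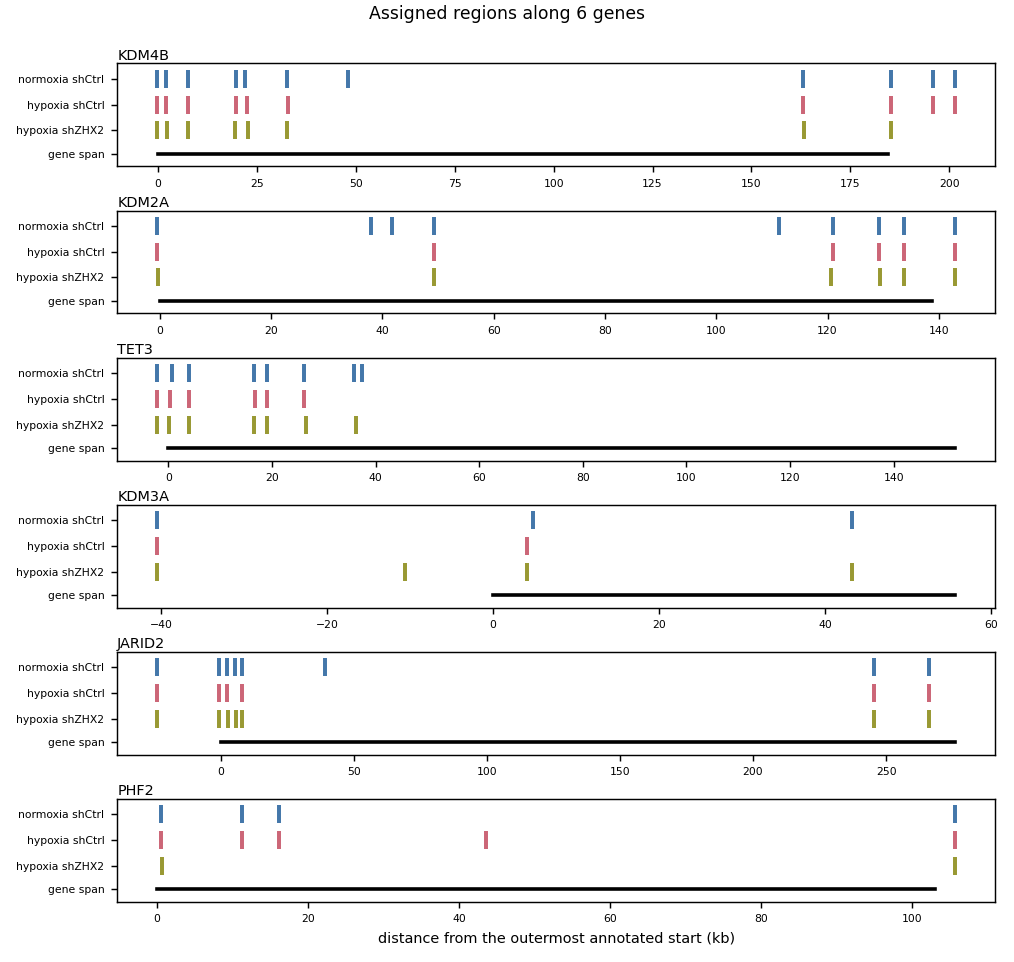
Assigned regions along KDM4B, KDM2A, TET3, KDM3A, JARID2 and PHF2, placed by their centre in kb from the outermost annotated start, with 1 row per list and the gene span in black. Regions joined across lists to 1 site are drawn once per list, so the counts can fall below those in the text, and regions over 50 kb from both ends are left out. An annotated start is called in every list for each gene, the regions of normoxia alone lie inside KDM2A, TET3, JARID2 and KDM4B, and PHF2 shows 2 regions with shZHX2.

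Regions called in 1 list of a pair were mostly weak in that list. Those of normoxia and not hypoxia had a median percentile of 22.2 in their list, beside 61.1 for all regions of the 35 genes there, and 22 of the 26 were in the lowest 30%, as were 5 of 5, 17 of 23 and 9 of 11 in the other sets. Those of hypoxia and not normoxia stood at 5.95, those of shCtrl and not shZHX2 at 21.5, and those of shZHX2 and not shCtrl at 22.2. Genome-wide the same 4 medians were 14.8, 13.0, 18.2 and 12.6. In all 4 sets together 2 regions stood above the median of their list, the ones at JARID2 and HSPBAP1. If each region of these genes had gone uncalled at the rate of its score decile, 19.0, 5.23, 21.9 and 6.39 would have been found, beside the 26, 5, 23 and 11 observed. Those rates pool gene-end and distal regions and carry no spread, and the gaps were not tested.

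**Figure D5:**
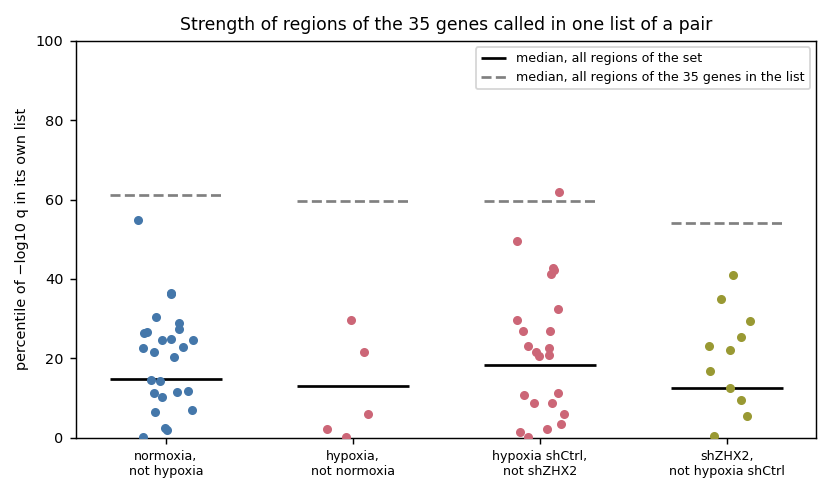
Percentile of −log10 q in its own list for each region of the 35 genes called in 1 list of a pair, 1 point per region, scattered sideways for sight. Black lines are the median of all regions of that set genome-wide (12.6 to 18.2) and grey dashes the median of all regions of the 35 genes in the list (54.0 to 61.1). Only the points of JARID2 at 54.9 and HSPBAP1 at 61.8 stand above 50.

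The number and the width of regions moved with these sets. Regions called in 1 list had median widths of 329, 262, 341 and 289 bp in the 4 sets, against 739, 608, 756 and 626 bp for the regions of these genes called in both lists. The longer list of each pair held the larger set. All lists were then reduced to their 62774 regions with the highest −log10 q. That gave 6 rather than 26 regions in normoxia and not in hypoxia, and 5 as before in the reverse. It gave 14 rather than 23 with shCtrl and not shZHX2, and 14 rather than 11 in the reverse. Under this cut 2 of these 4 counts moved by over 1.5 times, and the larger count with shCtrl than with shZHX2 became a tie. The cut removed the regions of lowest −log10 q, so list length and region strength cannot be told apart here. When the lists were reduced by fold instead, the 4 counts were 14, 5, 11 and 26, so that the order of the last pair turned around.

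The long genes also held regions more than 50 kb from both ends, which the rule leaves out. The 14 genes longer than 100 kb held 54, 43 and 31 of them, with none in PHF2, PHF8 or TET2. FTO had 9, 7 and 3, JARID2 10, 6 and 5, KDM4B 9, 8 and 6, KDM2B 7, 7 and 4, KDM4C 6, 5 and 5, and JMJD1C 6, 5 and 5. Of these, 12 of normoxia were missing from hypoxia (22.2%, 13.2 to 34.9, beside 26.8% of all regions that deep in any gene) and 1 the reverse (2.33%, 0.412 to 12.1, beside 8.20%). With shCtrl and not shZHX2 there were 15 (34.9%, 22.4 to 49.8, beside 30.7%), 4 of them in FTO, 3 in KDM2B and 2 each in JARID2 and KDM4B, and in the reverse 3 (9.68%, 3.35 to 24.9, beside 12.9%). The genome-wide shares again lay inside the intervals. FTO, with 6, 5 and 3 near its ends, had its lowest count with shZHX2 in both places. At the 50 kb limit itself, the last region inside was one of JMJD1C, 49468 to 49875 bp from its end with folds of 7.36, 7.14 and 9.51, and the first outside was one near FTO, 50166 to 50233 bp away with folds of 2.56, 2.58 and 2.95.

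Gene-end regions were also counted at genes that work against or beside these enzymes. Of 27 histone lysine methyltransferase genes, 25 had a gene-end region in each list, with SETD1B and NSD1 the exceptions. Of 12 writers of DNA and RNA methylation 11 did, all but UHRF1. All 5 genes of the flavin-dependent histone demethylases and their partners did, as did all 16 genes that make or clear 2-oxoglutarate and the acids that inhibit its enzymes, and 5 of 6 other ALKBH and JmjC genes, all but KDM4E. Their shares of normoxia regions not called in hypoxia were 21.2%, 10.8%, 20.8%, 15.8% and 9.09%, beside 19.0% for the 35 genes and 20.6% genome-wide. Their shares of shZHX2 regions not called with shCtrl were 5.26% (4 of 76), 3.70% (1 of 27), 5.56% (1 of 18), 2.38% (1 of 42) and 0% (0 of 10). Here the share was 10.2% (11 of 108), with an interval from 5.78 to 17.3% that holds the genome-wide 7.11%. The luminal breast markers had 9.62% (5 of 52). In the other sets the same 5 lists ranged from 0% to 16.7% for hypoxia and not normoxia, beside 4.24% here and 6.44% genome-wide. For shCtrl and not shZHX2 they ranged from 10.5% to 23.5%, beside 19.5% here and 25.0% genome-wide. These differences were not tested.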

How the data were processed

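ATAC-seq of 9 T47D samples was analysed from 3 deposited lists, 1 per group, with 9 columns and no header. The submitters' processing notes list FastQC, Bowtie2, SAMtools, MACS2 and the build hg38 with no version. Settings, any transposase shift and the way 3 samples became 1 list are not given in the sources used here. For each region of the deposited lists the authors gave a score, a fold enrichment (a ratio) and a −log10 q, which was at least 8.10. Positions are 1-based.

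Regions on chromosomes 1 to 22, X and Y were used. With Python 3.11.15, pandas 2.3.3 and numpy 2.4.6, each was assigned to the nearest protein-coding gene start or end of RefSeq GRCh38.p14 within 50 kb, and to every gene tied for nearest. Called in both lists means sharing 1 bp. Overlap and assignment were tested on simulated data. Shares have Wilson 95% intervals (scipy 1.17.1), for counting error only, since regions are not replicates. The members and gene lists were chosen with earlier results of these data known; the rule for genes given with values asked for those whose gene-end calls differed (none did), those with most or fewest regions, HIF targets, genes without a gene-end region, and the strongest region of each set. Alternatives varied the windows, the distance, the overlap, the strength and the list length. No test between groups was possible.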

Additional observations from a re-analysis of the deposited data

How the results depend on the processing

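Of 61 values recomputed under alternative settings, 46 stayed within 1.5 times the reported count and 15 moved further; the alternative that gave a region over several gene ends to the first symbol was chosen after seeing the data and moved none. The counts of genes with a gene-end region stayed between 27 and 32 under every alternative run, but the number of genes differing between lists went from 0 to 5 with equal lengths by fold and to 3 with the stronger 50%; the assignment distance has no bearing on them and was not varied there. With the stronger 50% of each list, the assigned regions fell from 137, 118 and 108 to 89, 72 and 60. For the 4 sets called in 1 list, the stronger 50% was taken of that list alone, and the other list was left whole. Their counts then fell from 26, 5, 23 and 11 to 1, 0, 1 and 0, the numbers already above the median of their list. For normoxia and not hypoxia, the count was 13 within 20 kb, 41 with every region inside a gene counted for it, 6 with lists of equal length by −log10 q and 14 by fold. For shCtrl and not shZHX2, it was 39 with every region inside a gene, 14 by −log10 q and 11 by fold. For shZHX2 and not shCtrl, it was 26 by fold, which turned the order of the last pair of sets around (11 against 26). A shorter distance gives fewer assigned regions by construction, and a wider rule gives more. Cutting both lists of a pair to equal length can lower or raise a count. Why the counts moved under equal lengths was not tested. No paired analysis was possible because each group has 1 list with no replicate numbers, and for the same reason no replicate could be left out. Of the 65 entries in the 4 sets, 63 were distal and 53 in the lowest 30% of their list. The depth behind the lists is unknown, so how near an uncalled region came to the threshold is not known.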
